A study of Rattus norvegicus with 30 samples.

Results

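H3K27me3, the trimethylation of lysine 27 on histone H3, was compared between the fetal cortex of Wistar rats whose mothers were obese from a high-fat diet (HFD) and the cortex of control fetuses. The comparison took every H3K27me3 library of both diets, 6 of the 30 libraries of the series. There were 3 libraries per diet, and each was made from the frontal cortex of embryos at day 14.5 (E14.5). Control mothers ate normal chow, HFD mothers ate a diet with 60% of its calories as fat, and both were mated with healthy males. The embryos of a litter were pooled into 1 sample, so a library describes a litter and no single embryo, and the cortex holds a mixture of cell types. The 3 libraries of a diet were merged before peaks were called. The data therefore consist of 1 list of enriched intervals per diet, with 57604 intervals in control and 49072 in HFD. No difference between the diets below has a replicate check, and no p-value is given for any of them. The tissue label could not be checked against marker genes, because the intervals carry no gene names and no gene annotation of their build, rn6, was used here.

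H3K27me3 is written by the polycomb repressive complex PRC2, whose catalytic subunit is EZH2 or EZH1. The mark is associated with silent developmental genes, and it can extend over broad domains as the complex binds its own product and modifies neighbouring nucleosomes. In neural progenitors it covers genes of other lineages and of later stages of development. At many promoters of developmental genes it is found together with H3K4me3, a mark of promoters, a state that is called bivalent. The width of the listed intervals, how far they were broken up, and how they lay along the chromosomes are the properties described here.

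Intervals of the HFD list were narrower at every percentile of width that was compared. The narrowest, the median and the widest interval of control measured 277, 714 and 8332 bp, and those of HFD 248, 488 and 5906 bp. The HFD median was 0.683 times that of control. At the 10th percentile of width the ratio was 0.862, at the 25th 0.801, at the 75th 0.771, at the 90th 0.785 and at the 99th 0.773. The middle of the distribution thus differed more than either end. All 22 assembled chromosomes had a narrower median in HFD, although on chromosome Y, with 39 control and 31 HFD intervals, the medians of 599 and 594 bp differed by little. On the other chromosomes the ratio of medians ranged from 0.634 on chromosome 10 to 0.732 on chromosome 16.

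The number of intervals did not fall evenly over the widths. Below 500 bp the HFD list held more intervals than control, 25148 against 19977. They made up 51.2% of the HFD list (95% Wilson interval 50.8% to 51.7%) and 34.7% of the control list (34.3% to 35.1%). The higher number depended on widths below 277 bp, which the control list does not hold, since without them HFD had 19925 such intervals, 45.4% of its list. It also turned at a q of at most 0.05, with 5481 in HFD and 9454 in control, and at a −log10 q of at least 5, with 175 and 834. These intervals, like all those given below, cover counting error only, and neighbouring regions of one genome are not independent. Each class of width includes its lower bound and leaves out its upper bound. From 500 to 1000 bp the HFD list held 0.760 times as many intervals as control, from 1000 to 1500 bp 0.575 times, and from 1500 to 2000 bp 0.397 times. Of intervals of 2000 to 3000 bp there were 2027 in control and 664 in HFD, and of those of 3000 bp and over there were 396 and 61. Intervals of at least 2000 bp covered 6.17 Mb of the genome in control but 1.75 Mb in HFD (ratio 0.284). The ratio for all covered bases was 0.651, so the ratio was lower for the wide intervals than for the list as a whole. This order turned at a −log10 q of at least 5, with 0.0540 for wide and 0.0295 for all bases, and with the control values rescaled to the lower background of the HFD list, with 2.29 for wide and 2.02 for all bases. At the far end of the range, 9 control and 5 HFD intervals reached 5000 bp.

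**Figure D1:**
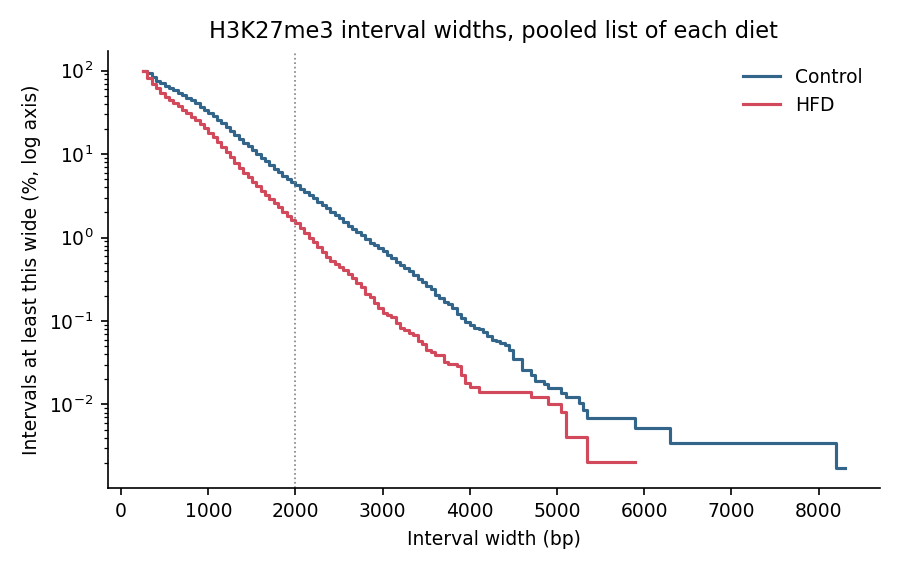
Share of the H3K27me3 intervals of each diet that were at least as wide as the value on the x axis (bp), with the share in percent on a logarithmic y axis, for 57604 control and 49072 HFD intervals. The dotted line marks 2000 bp, and the HFD line lies below the control line over the whole range drawn, with medians of 488 and 714 bp.

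The 5 widest control intervals, picked for their width in control, were all narrower in HFD or not listed, to very different degrees. The widest control interval, chr12:13803699-13812030 in rn6, spanned 8332 bp and was overlapped by no HFD interval. The second, chr3:107755828-107764011 with 8184 bp, was overlapped by 1 HFD interval of 2791 bp that lay near its right end and covered 34.1% of it. In contrast, chr14:46522149-46527452, 5304 bp wide and the last of the 5, had 94.4% of its bases listed in HFD. The one before it, chr1:181072466-181078344, kept 82.6% of its 5879 bp in 2 HFD intervals. The HFD partner of the former, chr14:46522448-46527534, and 1 of those of the latter, chr1:181073742-181078789, were among the 5 widest HFD intervals. The widest HFD interval, chr1:11961300-11967205, had 5906 bp, of which 78.6% was listed in control in 2 intervals. A neighbour 46.6 kb away, chr1:11909629-11914689, was also among the 5 widest in HFD and also joined 2 control intervals. The widest HFD interval with less than 50% of its bases in the control list was chr6:30628083-30633431, which had 5349 bp and 46.9% in control. The control and the HFD intervals were each picked for being the widest of their own list. Narrower partners in the other list follow in part from that choice.

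The statistical strength of the 2 lists differed as well. The peak caller gives each interval a fold enrichment over the local background and a q-value, the p-value adjusted for multiple testing. The median fold was 3.24 in control and 2.96 in HFD, and the median −log10 q was 1.73 and 0.879. Only 1.21% of HFD intervals, against 28.8% of control intervals, reached a −log10 q of 5. The weakest intervals had q-values of 0.486 in control and 0.480 in HFD. The library sizes are not in the lists, and the depth is unknown. A background of 0.880 fragments per base in control and 0.351 in HFD was derived, a ratio of 39.9%. It came from the most frequent pair of fold and p-value in each list, fitted with a whole number of overlapping fragments. For the other 4 antibodies of the series the same ratio was between 87.7% and 111%. The fold of this pair in HFD, 2.96, was also the median of the list, and the fit takes it as 3 overlapping fragments. In control the fold of the pair was 2.66, and the fit takes it as 4 fragments. The background thus differed more between the diets for H3K27me3 than for the other antibodies, and with 1 list per diet this difference and the effect of diet on the number and extent of intervals cannot be told apart.

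The totals depended on how this was handled. With a q of at most 0.05 in both lists, 35043 control and 11825 HFD intervals were left and the ratio of covered bases fell to 0.245. When the control values were rescaled by arithmetic to the HFD background, 15902 control intervals still reached the weakest p-value of the HFD list. The ratio of covered bases then turned to 2.02, and that of the bases in intervals of at least 2000 bp to 2.29. This rescaling rounded the control pileup down to whole fragments and left the HFD list as deposited. The lower quartile of fold in HFD, 2.76, lay below the 2.96 that 3 fragments give. Every turn given below for the rescaled control is favoured by this one-sided rule. The ratio of median widths stayed below 1 in every alternative tried, between 0.534 and 0.769. These alternatives left out whole intervals or joined neighbours, and none redrew the edges of intervals at an equal background. Whether the widths depend on the background was therefore not tested.

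Fragmentation was rare. Of the 57604 control intervals, 25018 were overlapped by 1 HFD interval, 208 held 2 and 4 held 3, while 32374 were overlapped by none. Overlap by at least 1 bp thus reached 25230 control intervals, 43.8% of the list (95% Wilson interval 43.4% to 44.2%), and several HFD intervals lay in 212 of them, 0.368% of the list. Among overlapped control intervals this was 0.840% (0.735% to 0.961%). In the opposite direction, 25413 HFD intervals overlapped control, 51.8% of the HFD list. An HFD interval spanned several control intervals in 33 cases, 0.0672% of the list and 0.130% of those that overlapped (0.0925% to 0.182%). Between the deposited lists, splitting in HFD was therefore more frequent than joining in HFD, and both concerned well under 1% of the intervals. The control list also had more intervals wide enough to hold several, 2423 of at least 2000 bp against 725 in HFD.

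Splitting was concentrated in the widest control intervals. None of the overlapped control intervals under 1000 bp held several HFD intervals, and 4 of 6733 did from 1000 to 1500 bp. The absence under 1000 bp was nearly fixed in advance, since the smallest gap of the HFD list was 994 bp. With the smallest width and gap of the HFD list, 2 whole pieces need 1490 bp, and of the 6504 control intervals with that room 208 were split (3.20% of all with that room, overlapped or not). Among overlapped control intervals of 2000 to 3000 bp the share was 6.68% (5.50% to 8.08%), and from 3000 bp it was 26.9% (22.4% to 31.9%), or 90 of 335. For HFD intervals of 3000 bp and over, 6 of 60 overlapping ones spanned several control intervals (4.66% to 20.1%). At 2000 bp and over the shares were 10.5% (9.15% to 12%) of control intervals split and 4.18% (2.87% to 6.05%) of HFD intervals split the other way. With HFD gaps joined up to the smallest gap of the control list, 1111 bp, these shares were 7.39% and 5.42% with overlapping Wilson intervals (6.26% to 8.70% and 3.99% to 7.33%), and from 2000 to 3000 bp they were 4.24% and 4.25%. From 3000 bp they were 20.9% (16.9% to 25.6%) and 14.5% (8.47% to 23.6%), again with overlapping Wilson intervals. In both classes the share split over the share joined was lower once the gaps were matched, 0.999 instead of 1.88 and 1.45 instead of 2.69. Whether an excess of splits remained was not tested, since overlap of such intervals is no test. Joining HFD gaps also raised the overlapping HFD intervals of 2000 bp and over from 622 to 719.

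The other mark called as broad intervals in both diets, H4K16Ac, an acetylation of active chromatin, gives a measure for these shares. Its overlap between the diets was 80.9% of control intervals. This share cannot be set directly against that of H3K27me3, since overlap by 1 bp depends on the length of the lists. The H4K16Ac list of HFD had 174862 intervals over 191 Mb, and that of H3K27me3 had 49072 over 31.8 Mb. The HFD to control ratio of the background was 109% for H4K16Ac and 39.9% for H3K27me3. At 2000 bp and over, 14.5% (14.1% to 15.0%) of its overlapped control intervals held several HFD intervals and 10.7% (10.3% to 11.1%) of its HFD intervals held several control intervals. From 3000 bp the shares were 25.3% and 19.8%. From 2000 to 3000 bp 1217 of its 15217 overlapped control intervals were split (7.58% to 8.44%). Within both of these width classes the Wilson intervals of H4K16Ac and H3K27me3 overlapped, and the lower pooled share of H3K27me3 went with fewer intervals of 3000 bp and over, 396 of 2423 against 9271 of 25049. At 2000 bp and over the share split was 2.51 times the share joined for H3K27me3 and 1.36 times for H4K16Ac, but the smallest gaps of the lists were 994 bp in HFD and 1111 bp in control for the first and 1175 and 1194 bp for the second. With HFD gaps joined up to the smallest control gap of the same mark, the ratios were 1.36 and 1.20.

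**Figure D2:**
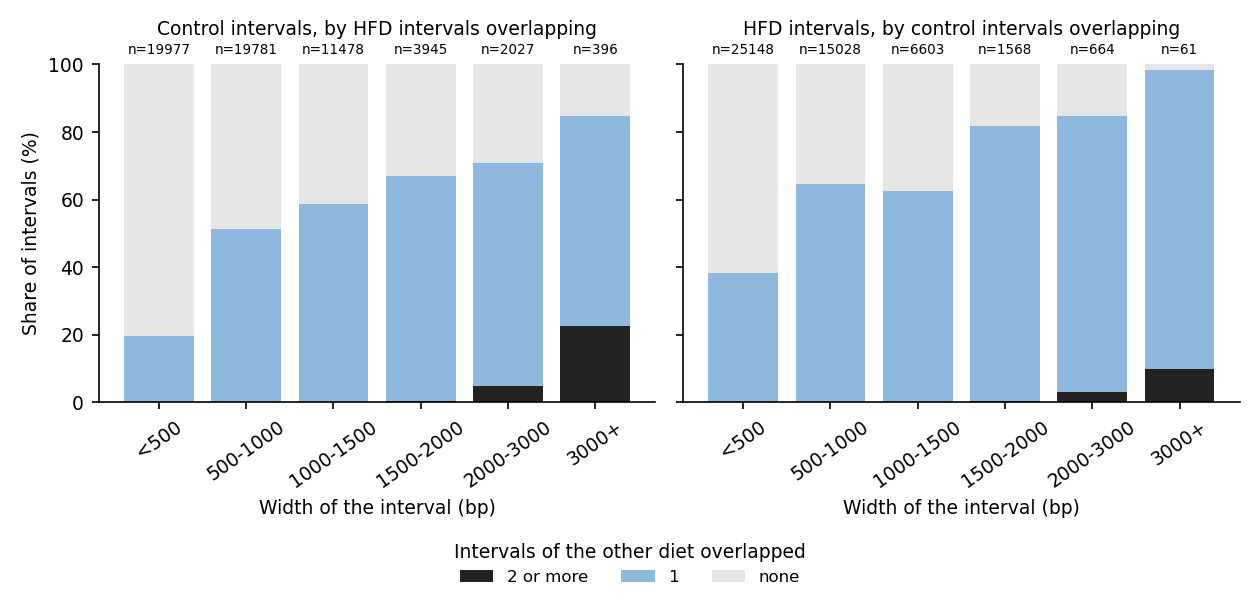
Share of control intervals (left) and of HFD intervals (right) that overlapped none, 1, or 2 or more H3K27me3 intervals of the other diet by at least 1 bp, in percent, by width class in bp, with the number of intervals above each bar. Of the 212 split control intervals 186 had 2000 bp or more, and in the widest class 22.7% of all control intervals and 9.84% of all HFD intervals held 2 or more.

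The 212 split control intervals had a median width of 2765.5 bp, and the narrowest had 1143 bp. They contained 428 HFD pieces with a median of 501.5 bp. A median of 38.2% of their bases was still listed in HFD (quartiles 30.3% and 49.2%), and the largest piece alone held a median of 25.9% of the control width. The 216 gaps between neighbouring pieces had a median of 1201 bp and ranged from 994 to 2887 bp. Of these gaps, 158 (73.1%) were under 1500 bp. The smallest gap anywhere in the HFD list was 994 bp and in the control list 1111 bp, since the peak caller joins enriched stretches that lie closer than this. In 72 of the 216 cases the gap was no longer than 1111 bp, a length below which the control list has no gap at all. Joining such gaps in HFD reduced the split control intervals to 143, or 0.567% of those overlapped.

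The 4 control intervals with 3 HFD pieces show the form that splitting took. In chr14:55080486-55085697 (5212 bp) the pieces measured 557, 336 and 344 bp and left 23.7% of the bases listed. In chr1:280633421-280637708 (4288 bp) they measured 327, 420 and 450 bp, or 27.9% of the bases. In chr20:46426112-46429785 (3674 bp) the 3 pieces had 319, 398 and 367 bp and covered 29.5%. In these 3 regions every piece lay inside the control interval, and the longest was the piece of 557 bp. The fourth, chr13:105243978-105247490 (3513 bp), differed, as one piece of 271 bp crossed its left end and one of 1136 bp its right end. Its −log10 q in control was 0.647, against 6.92, 8.98 and 13.4 for the other 3. The widest region with 2 pieces, chr14:108824790-108831083, had 6294 bp in control and pieces of 1011 and 787 bp, which left its whole right part unlisted. H3K4me3 intervals of both diets were present in all 5 regions, and all 14 HFD pieces overlapped a control H3K4me3 interval, some of them only in part. This is near the ordinary share, since 92.3% of all HFD intervals that met 1 control interval did so.

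**Figure D3:**
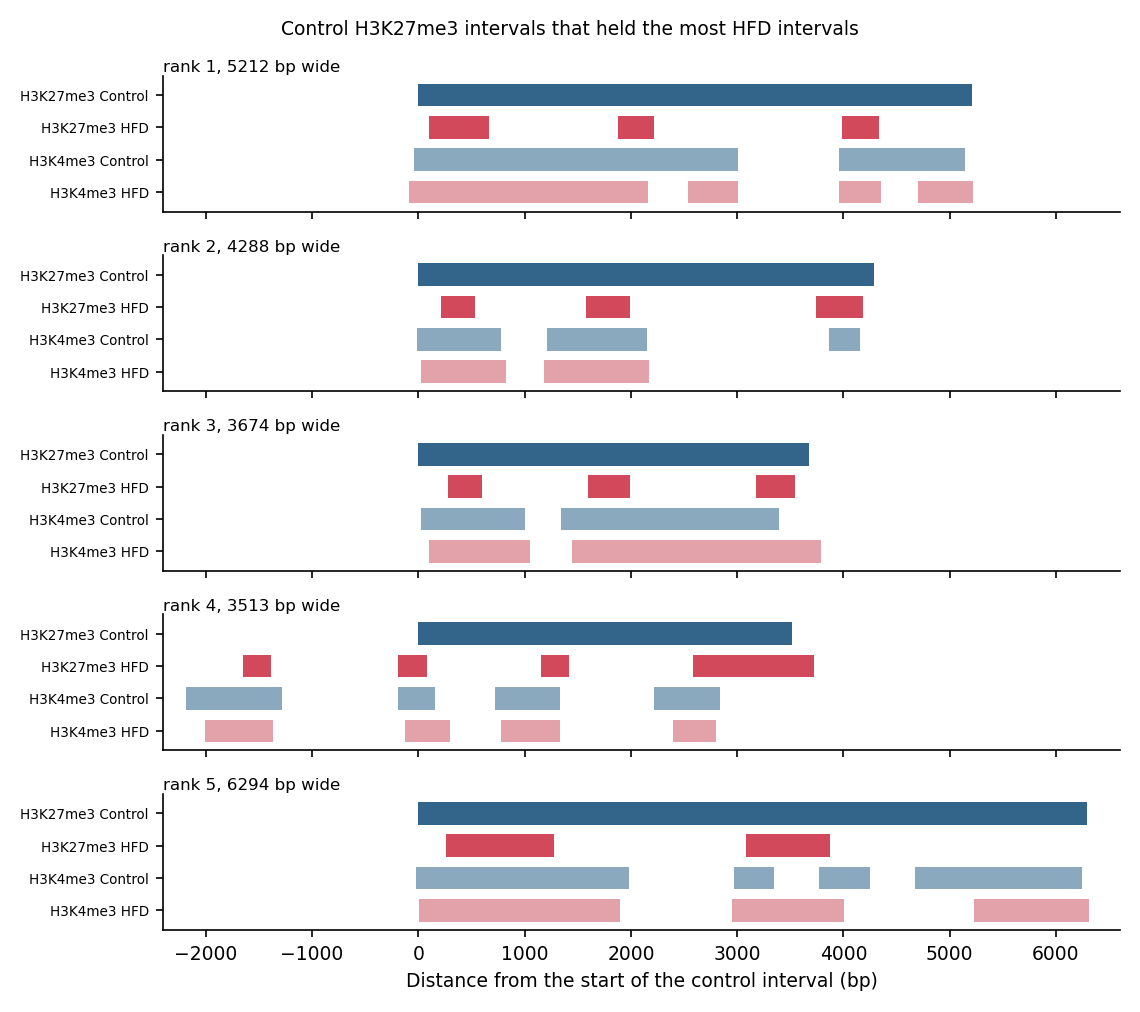
The 5 control H3K27me3 intervals that held the most HFD intervals, drawn to scale as distance in bp from the start of the control interval, with the H3K27me3 and H3K4me3 intervals of both diets as bars. Ranks 1 to 4 held 3 HFD pieces and rank 5 held 2, and all 14 pieces overlapped a control H3K4me3 interval, as did 92.3% of all HFD intervals that met 1 control interval.

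Most control bases that HFD lacked lay in intervals without an HFD partner or in intervals with 1 partner, and few lay in split intervals. Control covered 48.9 Mb and HFD 31.8 Mb, and 15.6 Mb was common to both, 32.0% of the control bases and 49.1% of the HFD bases. Of the control bases not listed in HFD, 22.3 Mb lay in intervals that no HFD interval overlapped and 10.9 Mb inside intervals that were overlapped. The split intervals contributed 0.364 Mb to the latter. HFD had 16.2 Mb that control lacked, of which 12.6 Mb lay in intervals without overlap and 3.56 Mb at overlapping ones. The HFD list was thus no subset of the control list.

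There were 24954 pairs in which 1 control and 1 HFD interval overlapped only each other. The control member of these pairs had a median width of 923 bp and the HFD member one of 620 bp. The ratio within a pair had a median of 0.732, with quartiles of 0.502 and 0.984. HFD was the narrower of the pair in 19014 cases, 76.2% (75.7% to 76.7%). In 49.7% of pairs the HFD interval lay wholly inside the control interval, in 6.98% it enclosed it, and in the others it reached past one end. Sorted by control width, the median ratio went from 1.10 below 500 bp to 0.719 at 500 to 1000 bp and 0.371 at 3000 bp and over. Sorted by HFD width it went the other way, from 0.503 below 500 bp to 1.06 at 3000 bp and over. With the pairs sorted by the geometric mean of both widths, which favours neither diet, the ratio was 0.779 below 500 bp, 0.657 at 500 to 1000 bp, 0.805 at 1000 to 1500 bp, 0.868 at 2000 to 3000 bp and 0.955 in the 55 pairs of 3000 bp and over. Where both diets listed an interval, narrowing was thus strongest at 500 to 1000 bp and least in the widest pairs, and HFD was narrower in 65.5% of the latter.

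Within overlapped control intervals, the HFD signal was listed most often in the middle. With each interval divided into 20 equal steps, the HFD list covered the outermost step at either end in 33.6% of cases and the centre in 78.5%. This profile depended on width. From 1000 to 1500 bp the values were 25.9% at the ends and 76.7% in the centre, whereas from 3000 bp they were 33.1% and 43.3%. The profile of the 335 widest overlapped intervals thus had a smaller difference between ends and centre, and it was not symmetric, with 30.1% at the first step, 41.5% at step 9, 52.2% at step 19 and 36.1% at step 20. In comparison, control H3K4me3 intervals were listed at 68.6% of ends and 81.8% of centres of all overlapped control H3K27me3 intervals. For those of 2000 bp and over this order was turned, with 62.8% at the ends and 56.8% in the centre, while HFD H3K27me3 still had 28.1% at the ends and 51.6% in the centre.

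**Figure D4:**
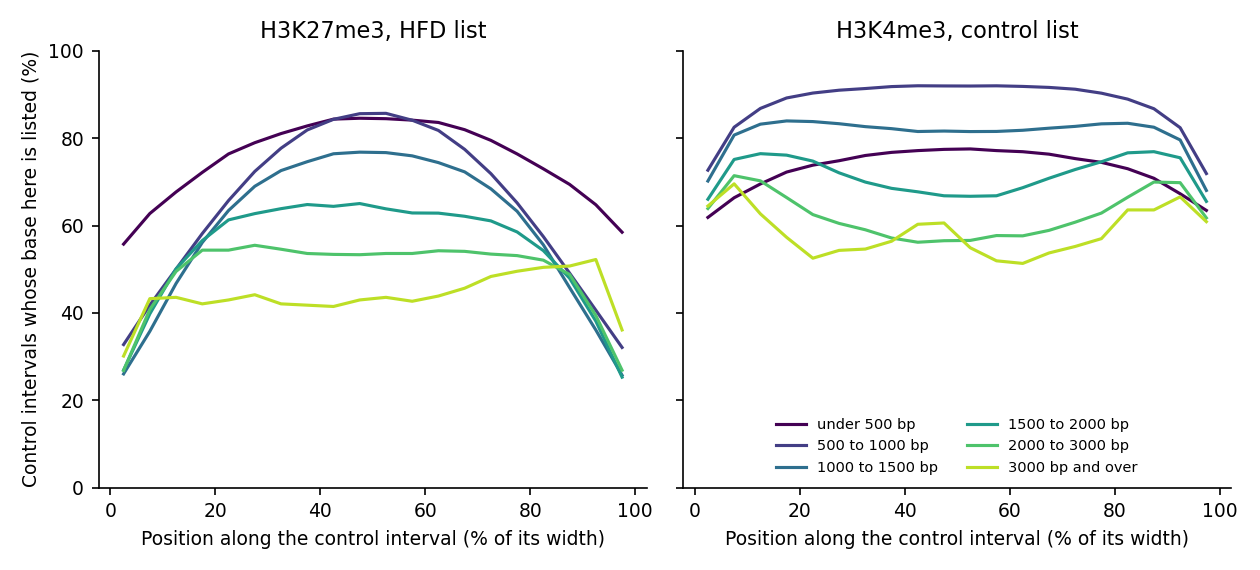
Share of overlapped control H3K27me3 intervals, in percent, whose base at a given position was inside an HFD H3K27me3 interval (left) or a control H3K4me3 interval (right), over 20 equal steps along the control interval and by its width class. The HFD profile is an arch for intervals under 1500 bp, with 78.5% in the centre over all classes. For intervals of 3000 bp and over it is lower than for all classes from step 3 to step 18. It is also uneven there, between 30.1% at the first step and 52.2% at step 19, where all classes have 43.0%.

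The bases that stayed listed in HFD were more often also covered by the other antibodies. Within control intervals that overlapped 1 HFD interval, 87.6% of the kept bases and 63.4% of the lost bases lay in control H3K4me3 intervals. In the split intervals the values were 76.0% and 45.5%. Total H3, the antibody against the histone whatever its modification, showed the same order, with 89.7% of kept and 63.6% of lost bases in the intervals with 1 HFD partner, and 80.4% and 45.3% in the split ones. H4K16Ac in control covered 97.0% of kept and 83.4% of lost bases. Control intervals without any HFD overlap had 42.4% of their bases in H3K4me3 and 51.8% in total H3. Kept bases were covered more often than lost bases by H3K4me3, H4K16Ac and total H3 alike, while the order among the groups of lost bases differed between these antibodies.

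Whole intervals gave the same picture. Of control intervals that overlapped 1 HFD interval, 93.3% also overlapped control H3K4me3, and of those without HFD overlap 61.1% did. Of the HFD intervals without control overlap, 26.1% overlapped control H3K4me3 and 27.3% HFD H3K4me3. Total H3 in HFD overlapped 44.5% of them, against 97.3% of the HFD intervals that met 1 control interval. Intervals listed in HFD alone were hence the group of H3K27me3 intervals that was least often listed for any other antibody. They were also short and weak, with a median width of 376 bp, a median fold of 2.86 and a median −log10 q of 0.820. Control intervals without HFD overlap had medians of 504 bp, 2.94 and 1.17, and those with 1 HFD partner 922 bp, 4.51 and 5.96.

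Overlap with HFD followed the strength in control. With control intervals ranked by −log10 q and divided into 10 groups of equal size, 16.2% of the weakest group were overlapped, 52.8% of group 7, and 90.3% (89.6% to 91.1%) of the strongest. The share that held several HFD intervals did not follow this course, with 0.104% in the weakest group, 1.02% in group 8 and 0.226% in the strongest. Seen from HFD, 29.8% of the weakest group and 90.9% of the strongest overlapped control. Group 5 of HFD stood below its neighbours with 25.5%. Its −log10 q ran only from 0.844 to 0.879 and its median width of 364 bp was the smallest of the 10.

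Spacing along the chromosomes was wider in HFD. The median gap between neighbouring intervals was 19.8 kb in control and 26.5 kb in HFD, a ratio of 1.34. This ratio turned to 0.750 with control cut to the covered bases of HFD and to 0.382 with control rescaled to the HFD background. The 25th percentile was 8.09 and 10.7 kb, and the 75th was 52.6 and 65.7 kb, whereas at the 99th percentile the gaps of 403 and 441 kb had a ratio of only 1.10. Gaps of at most 5 kb were 12.6% of all in control and 9.40% in HFD, and gaps of at most 10 kb were 31.0% and 23.4%. Gaps of over 1 Mb numbered 10 in control and 22 in HFD. The median gap was longer in HFD on 21 of 22 chromosomes, Y being the exception. From intervals found in 1 diet only, the nearest interval of the other diet lay at a median of 11.5 kb for control and 10.7 kb for HFD, and the nearest of the own list at 9.80 and 14.2 kb. An interval of the other diet lay within 10 kb of 45.8% and 48.1% of them. Within 1 kb this was the case for 4.28% and 6.19%.

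Clusters were defined as runs of at least 3 intervals with gaps of up to 10 kb. Control had 3622 clusters that contained 26.2% of its intervals (25.8% to 26.5%), and HFD had 2171 that contained 16.6% (16.3% to 17.0%). Clusters of at least 10 intervals numbered 84 in control and 21 in HFD. Intervals with no neighbour within 10 kb were 51.7% of the control list and 61.1% of the HFD list. The share in clusters was lower in HFD on 20 of 22 chromosomes, with chromosomes 15 and Y as exceptions. Of the control clusters, 3219 spanned fewer HFD than control intervals, 328 as many and 75 more, and 452 of the 3219 spanned no HFD interval. The 15084 control intervals in clusters had 7721 HFD intervals in their place, a ratio of 0.512, while over the whole list it was 0.852. The clusters were picked in control, so the first ratio is a description of these spans and a lower value than over the list follows in part from that choice. Of the HFD clusters, 52.6% overlapped a control cluster, and of the control clusters 31.0% overlapped an HFD cluster.

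Clustering depended on the length of the list. For lists of equal length, the control list was cut to its strongest 49072 intervals, as many as HFD had. The difference in the share in clusters, HFD minus control, then went from −9.57 to −2.77 percentage points (19.4% of control and 16.6% of HFD intervals). It turned to 12.2% against 16.6% once control was cut down to as many covered bases as HFD had, and to 2.79% against 16.6% with control rescaled to the HFD background. Clustered control intervals were overlapped by HFD slightly less often than others, 42.4% (41.6% to 43.2%) against 44.3% (43.8% to 44.8%). The share fell to 37.3% (36.5% to 38.2%) for control intervals with a neighbour within 5 kb, which were also narrower, with a median of 622 bp, and weaker, with a median −log10 q of 1.32.

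The largest clusters, each picked in the list of 1 diet, differed in their values in the other. The largest in control, chr9:12287677-12479173, had 33 intervals over 191 kb, and 32 HFD intervals lay in the same span, although the covered bases went from 37.0 to 26.4 kb. The largest HFD cluster, chr9:12313246-12427145 with 21 intervals, lay within it. The next 2 control clusters in size were thinned out. In chr1:222342140-222477890 there were 21 control and 9 HFD intervals, with 23.6 and 7.15 kb covered. In chr7:123754271-123847791 there were 19 and 9, with 16.5 and 5.66 kb. In both other large HFD clusters control had a similar number of intervals and covered more bases. In chr14:46579942-46687422, which begins 52.5 kb beyond the control interval chr14:46522149-46527452, 21 HFD and 18 control intervals covered 30.2 and 33.0 kb. In chr3:61578405-61686463 there were 18 of each, with 14.7 kb in HFD and 20.6 kb in control.

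Counted in 2771 windows of 1 Mb, the intervals of both diets lay in the same parts of the genome. The counts per window correlated with a Pearson r of 0.939 and a Spearman rho of 0.912, as a description over windows that share gene density, base composition and mappability. The mean count was 20.5 in control and 17.5 in HFD, with 112 and 95 in the fullest window. The variance was 14.6 times the mean in control and 9.56 times in HFD, and the coefficient of variation was 0.844 and 0.740, so that HFD intervals were spread more evenly. The HFD to control ratio of variance over mean, 0.654, turned to 1.07 and 1.74 under the same 2 changes to the control list. The fullest 5% of windows held 17.6% of control and 15.6% of HFD intervals. HFD covered fewer bases than control in 2340 windows (84.4%) and more in 431. The count of windows with fewer bases was 2074 with lists of equal length and 1244 with control cut to the covered bases of HFD, and it turned to 145 (5.23%) with control rescaled to the HFD background.

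Losses were larger where chromatin intervals were dense. To avoid sorting windows by either H3K27me3 list, they were ranked by the number of control total H3 intervals, a list in which 1 library carries labels of both diets, and divided into 5 groups of equal size. In the group with the fewest, 2 to 18 per window, HFD covered 0.770 times the bases of control, with means of 3.55 and 4.61 kb per window. The ratio was 0.737, 0.744 and 0.687 in the next 3 groups. In the group with the most, 101 to 253 per window, it was 0.577, with 24.1 kb in HFD and 41.9 kb in control. The ratio of interval numbers went from 0.966 in the first group to 0.767 in the last. With the control list cut to the length of the HFD list it went from 1.11 to 0.923. With a q of at most 0.05 it went from 0.501 to 0.253, so the order of these ends held in both cases. With the control rescaled to the HFD background it went from 4.70 to 2.96, with the lowest value, 2.85, in group 4.

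**Figure D5:**
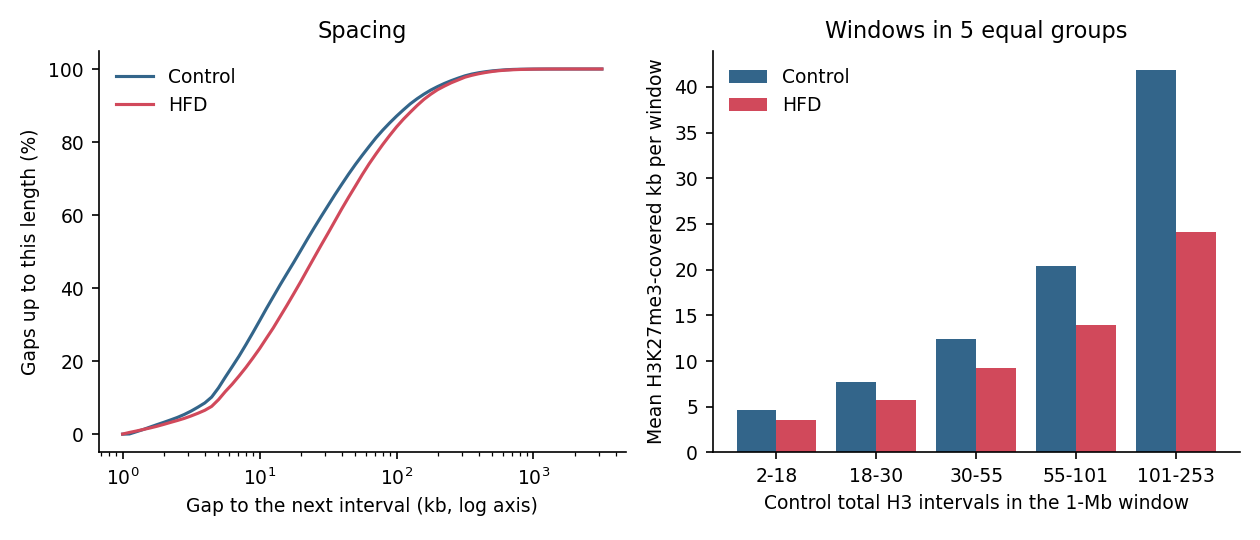
Left, share of gaps between neighbouring H3K27me3 intervals, in percent, up to the length on the logarithmic x axis (kb), with medians of 19.8 kb in control and 26.5 kb in HFD. Right, mean bases covered by H3K27me3 intervals per 1-Mb window (kb) in 5 equal groups of the 2771 windows ordered by their number of control total H3 intervals, where control and HFD differ most in the last group, 41.9 against 24.1 kb.

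Between the deposited lists, the chromosomes showed a similar order. Chromosome 12 had the highest density, with 42.1 control and 31.1 HFD intervals per Mb, and the lowest ratio of covered bases, 0.561. On it 44.0% of control and 22.6% of HFD intervals were in clusters, and 36.0% of control intervals were overlapped by HFD. Chromosome 10, with 33.6 control intervals per Mb, had a ratio of 0.567, and chromosome 20, with 30.7, had 0.579. Chromosome 19, with 30.2 per Mb, stood apart from these with 0.648. Among the autosomes the highest ratios were 0.718 on chromosome 9 and 0.716 on chromosome 2. Chromosome X was the sparsest with 10.5 control and 8.55 HFD intervals per Mb, and yet its ratio was only 0.612. Over the 22 chromosomes, density in control and the ratio of covered bases had a Spearman rho of −0.657, as a description, since density in control enters both measures. The order of the chromosomes depended on the lists. Chromosome 10 had the lowest ratio with lists of equal length (0.657), at a q of at most 0.05 (0.164) and with control rescaled to the HFD background (1.66), while chromosome 12 took rank 3, 2 and 15 from the lowest. With control cut to the covered bases of HFD, chromosome X was lowest with 0.833, chromosome 10 followed with 0.848, and chromosome 12 took rank 5 with 0.966. With the rescaled control all 22 ratios were above 1 and the Spearman rho was −0.123.

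Single windows, picked for the largest loss or gain of covered bases, gave the extremes. The largest loss was in chr7:12000001-13000000, the fullest window of the control list, where the covered bases went from 138 to 69.4 kb and the intervals from 112 to 95. In chr19:25000001-26000000 they went from 102 to 38.9 kb and from 86 to 52 intervals, and in chr16:20000001-21000000 from 118 to 56.1 kb and from 106 to 75 intervals. Covered bases thus fell more than interval numbers in all 3. The choice by covered bases favours this order, and the whole list had it too, with ratios of 0.651 for bases and 0.852 for numbers. The largest gain was in chr3:96000001-97000000, with 4 control and 24 HFD intervals that covered 1.80 and 14.4 kb. In chr2:163000001-164000000 there were 10 and 24 intervals, with 6.24 and 16.5 kb, and in chr1:76000001-77000000 there were 3 and 14, with 2.44 and 10.7 kb. The largest gain was 12.6 kb, whereas in the window of the largest loss the covered bases fell by 68.3 kb. With control rescaled to the HFD background this turned, with a largest gain of 58.8 kb in any window and a largest change downward of −9.75 kb.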

How the data were processed

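ChIP-seq of the E14.5 cortex was analysed from deposited interval lists. Per the labels and methods, the authors used Bowtie2 for alignment to rn6, MACS2 for peak calling and deepTools. Versions, options and the handling of duplicates and input are not given in the sources used here. Each deposited broad list merges 3 libraries and gives the authors' score (10 times the −log10 q), fold enrichment as a ratio to the local background, −log10 p and −log10 q, averaged over the interval. The H4K16Ac lists are also broad, and those of the other antibodies are narrow.

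Computed here were widths, overlaps of at least 1 bp, gaps, clusters, counts in 1-Mb windows and ratios between the diets. Fold was taken as pileup plus 1 over background plus 1. With the Poisson p-value of the most frequent pair of fold and p in a list, this gave the background. Wilson intervals at 95% cover no more than the counting error of a share. Unplaced sequences, with 550 control and 446 HFD intervals, were left out of chromosomes and windows. As each diet has 1 list, no test was possible. The interval functions were tested on made-up intervals. The work ran in Python 3.11.15, with tables in pandas 2.3.3, arrays in numpy 2.4.6, figures in matplotlib 3.10.9 and Poisson tails in scipy 1.17.1.

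The members, lists and measures were chosen with earlier results of these data known. The regions named were the 5 widest intervals of each diet, the 5 control intervals with the most HFD intervals, the 3 largest clusters of each diet, and the 3 windows with the largest loss and gain. In 1 control total H3 library the labels name both diets, and it was taken as control by its title. Alternative thresholds, list lengths, rescaling, joining, and cluster and window sizes were tried. Genes were not assigned and no sequence was read, since the gene and sequence tables at hand describe another assembly.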

Additional observations from a re-analysis of the deposited data

How the results depend on the processing

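No paired analysis was possible because the libraries of a diet were merged into 1 list before peaks were called. The median width ratio stayed below 1 and within 1.5 times 0.683 in all 10 alternatives, from 0.534 to 0.769. None of them redrew interval edges at an equal background. The rescaled control kept its wider intervals, with a median of 914 bp, which by itself lowers the ratio. Of 108 alternative values, 60 stayed within 1.5 times the value above (shares within their Wilson interval), 37 moved beyond it and 11 reversed. The cause was not tested.

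At a −log10 q of at least 5 the HFD to control ratios were 0.0358 for interval number, 0.0295 for covered bases, 0.0540 for bases in intervals of at least 2000 bp and 24.96 for the median gap. The overlapped control share was 3.13%, split 1.73%, joined 0.380%, and the difference in clusters +10.6 points. At a q of at most 0.05 these were 0.337, 0.245, 0.112, 3.62, 25.8%, 0.310% and 0.0772%, and the ratio of variance over mean per window was 0.343.

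The rescaling rounded the control pileup down to whole fragments and left the HFD list as deposited, which favours a turn. With the control rescaled to the HFD background, the ratios were 3.09 for number, 2.02 for covered bases, 2.29 for wide bases, 0.382 for the gap and 1.74 for variance over mean. The overlapped share was 78.4%, split 0.265%, joined 0 and the difference in clusters 13.8 points. With the control cut to the covered bases of HFD, the number ratio was 1.40, the gap 0.750, variance over mean 1.07, overlap 59.2%, joined 0.0669% and clusters 4.41 points. At equal length overlap was 48.7% and clusters −2.77 points.

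Wide bases from 1000 bp had a ratio of 0.458 and from 5000 bp 0.484. Overlap was 41.6% and split 0.725% without intervals under 277 bp, and overlap was 29.8% when 50% of the control interval had to be covered. Pieces of at least 200 bp gave 0.733% split and 0.0832% joined, and control intervals of at least 2000 bp gave 10.5% split. Cluster gaps of 5000 bp gave −2.30 points and of 50000 bp −5.37. In 2 alternatives chosen after seeing the data, joining gaps of up to 3000 bp gave wide bases 0.489, overlap 45.7% and split 0.493%, and joining HFD gaps up to the smallest control gap gave 0.567% split and 0.190% joined. Joining gaps of up to 1000 bp left every control gap as it was.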
